A study of Mus musculus with 24 samples.

Results

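The 10 genes described here are the forkhead transcription factors Foxf1, Foxf2, Foxd1, Foxd2, Foxc1, Foxc2, Foxl2, Foxp1, Foxp2 and Foxo1, grouped by name as forkhead genes of facial mesenchyme. All 10 were found by symbol in the read count table, which held 45 forkhead genes among 56748 genes. The libraries came from mesenchymal cells of first molar tooth germs of ICR mouse embryos, taken from the mandible at the cap stage or the later bell stage and freed of epithelium with dispase II. The germs were left undivided (Cap_W, Bell_W), cut with a fine needle into a lingual and a buccal part (Cap_L, Cap_B, Bell_L, Bell_B), or cut at the cap stage and cultured for 2 days (Cap_L_2D, Cap_B_2D). Each of the 8 groups had 3 libraries, and no group carried a mutation, a transgene or a drug. The series text calls W the whole tooth germ, whereas the sample labels call every library mesenchymal cells. The study's methods describe embryos of several pregnant mice, but no source ties a library to an animal or a pool, so p-values measure the spread between these libraries, which may be technical.

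Forkhead proteins bind DNA through a winged helix domain and act as activators or repressors of transcription. In the neural crest mesenchyme of the face, Foxf1, Foxf2, Foxd1 and Foxd2 are known as genes that respond to hedgehog signals sent by the epithelium, and mice without Foxf2 have a cleft palate. Foxc1 and Foxc2 act in mesenchyme around the eye, in skull bone and in vessels, Foxl2 is best known from the eyelid and the ovary, Foxp1 and Foxp2 are repressors, and Foxo1 is held out of the nucleus by insulin and PI3 kinase signaling.

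Several members stand beside another forkhead gene or start next to a long noncoding RNA of the other strand. In the GRCm39 coordinates of the deposited table, Foxf1 (ENSMUSG00000042812) spans 121811125 to 121814883 on the plus strand of chromosome 8. Foxc2 (ENSMUSG00000046714) lies on the same chromosome and strand from 121842910 to 121845634. The start of the noncoding Fendrr, on the minus strand, is 1276 bases from that of Foxf1. On the plus strand of chromosome 13, Foxf2 (ENSMUSG00000038402) spans 31809799 to 31815386, Foxc1 (ENSMUSG00000050295) spans 31990616 to 31996459, and Foxd1 (ENSMUSG00000078302) spans 98490750 to 98495813. Foxd2 (ENSMUSG00000055210) spans 114763479 to 114766070 on the minus strand of chromosome 4, 354 bases from the noncoding Foxd2os. Foxl2 (ENSMUSG00000050397) spans 98837341 to 98840596 on the plus strand of chromosome 9, and 12 of its exon bases are also exon bases of the noncoding Foxl2os. Foxp1 (ENSMUSG00000030067) spans 98902299 to 99499682 on the minus strand of chromosome 6, and Foxp2 (ENSMUSG00000029563) spans 14901348 to 15441976 on its plus strand. Foxo1 (ENSMUSG00000044167) spans 52175757 to 52260642 on the plus strand of chromosome 3. The reads were counted without regard to strand, so reads of overlapping exons of opposite strands cannot be told apart. The share of exon bases that a member had in common with another gene was highest in Foxo1, at 7.78%, and was 0 in Foxd1, Foxd2, Foxc1, Foxc2 and Foxp2.

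Start regions of 300 bases, from 250 before to 50 after the transcription start, were taken from RefSeq (GRCm38.p6), which gave one for 7 of the 10 members and none for Foxf1, Foxc2 and Foxp2. Those of Foxf2 and Foxd1 are shown because, of the members with a window, these hedgehog-linked genes were lower in the buccal part by the most at the cap stage. Capitals mark the letters CCACCC or, on the other strand, GGGTGG, the inner letters of the GLI motif GACCACCCA. Both matches of Foxf2 overlap and begin 196 and 191 bases before the start, and the single match of Foxd1 begins 210 bases before it.
Foxf2, chr13:31625566-31625865, plus strand: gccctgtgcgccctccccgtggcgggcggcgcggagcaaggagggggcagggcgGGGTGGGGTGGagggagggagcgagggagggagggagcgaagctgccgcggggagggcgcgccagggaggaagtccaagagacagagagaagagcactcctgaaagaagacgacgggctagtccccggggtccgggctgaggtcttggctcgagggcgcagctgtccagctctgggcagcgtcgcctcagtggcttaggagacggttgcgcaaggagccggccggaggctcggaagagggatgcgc
Foxd1, chr13:98353995-98354294, plus strand: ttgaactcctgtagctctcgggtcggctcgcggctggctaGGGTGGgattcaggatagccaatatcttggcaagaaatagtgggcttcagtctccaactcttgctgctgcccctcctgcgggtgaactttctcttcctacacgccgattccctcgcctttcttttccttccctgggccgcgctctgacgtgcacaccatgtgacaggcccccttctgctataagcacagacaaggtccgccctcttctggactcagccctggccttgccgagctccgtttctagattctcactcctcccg
The window of Fendrr is shown because it is the partner RNA that stands next to Foxf1, and capitals mark its single match to the forkhead letters GTAAACA, searched on both strands, 129 bases before the start. The window of Foxl2 is shown with capitals for the 204 bases that also lie in the start window of Foxl2os.
Fendrr, chr8:121083061-121083360, minus strand: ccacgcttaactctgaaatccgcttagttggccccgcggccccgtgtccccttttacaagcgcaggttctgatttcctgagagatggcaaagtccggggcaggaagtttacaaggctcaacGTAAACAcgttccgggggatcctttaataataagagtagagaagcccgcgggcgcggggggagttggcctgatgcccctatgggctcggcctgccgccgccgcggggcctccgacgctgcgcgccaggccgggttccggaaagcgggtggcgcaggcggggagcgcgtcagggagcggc
Foxl2, chr9:98955357-98955656, plus strand: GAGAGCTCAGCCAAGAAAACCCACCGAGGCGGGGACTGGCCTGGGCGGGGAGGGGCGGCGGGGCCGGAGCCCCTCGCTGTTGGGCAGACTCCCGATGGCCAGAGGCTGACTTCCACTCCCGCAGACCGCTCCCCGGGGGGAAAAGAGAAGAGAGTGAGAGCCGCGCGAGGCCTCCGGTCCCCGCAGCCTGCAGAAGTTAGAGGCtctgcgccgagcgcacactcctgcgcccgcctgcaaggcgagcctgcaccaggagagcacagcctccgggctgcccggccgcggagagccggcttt
Over both strands, the letters CCACCC were in 31.5% of all 32851 windows, the full GACCACCCA in 0.253%, and GTAAACA in 3.65%. No member window held GACCACCCA or GTAAACA. The letters CCACCC were not limited to hedgehog-linked members. In Foxp1 windows, matches began 176, 44 and 15 bases before a start. The window of the hedgehog-linked Foxd2 held none, nor did those of Foxo1, Foxc1 and Foxl2. The member windows held 5 to 44 CpG pairs, against a median of 7 over all windows, and the 3 windows of Foxp1 spanned that whole range.

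The libraries held 20581720 to 39266497 counted reads, with a median of 27677163, so 3 counts, the limit that a count of 0 allows, stood for 0.0764 to 0.146 CPM. Levels are given as CPM, counts relative to library size, after TMM scaling over all 24 libraries, and such limits and intervals cover counting error only. All 10 markers of dental mesenchyme, among them Msx1, Pax9 and Barx1, were detected in every group, with sums of 2044 to 3967 CPM. In their least alike pair of libraries, both undivided groups were less even than the parts. Cap_W replicate 1 had 5.39% of its reads on the ribosomal Rn18s-rs5 gene, and Bell_W replicate 3 had a sum of 1758 CPM over 8 epithelial markers, against 430 and 506 CPM in the other two. For pairs of replicates, the chi-square per gene would be near 1 with counting noise alone. It was 1.32 to 1.49 in Cap_B, 2.30 to 9.84 in Cap_L and at most 5.28 in the other parts. In Cap_W it was 7.89 to 161, and in Bell_W 12.8 to 61.8. Within each group, no library was a copy of another. The parts themselves differed in other cell types. The 8 skeletal muscle markers summed to 20.5 to 21.1 CPM in Cap_L and 224 to 244 CPM in Cap_B, 115 to 123 CPM in Bell_L and 914 to 944 CPM in Bell_B, and 301 to 320 CPM in Cap_L_2D and 3805 to 4032 CPM in Cap_B_2D, with all 8 higher in the buccal part each time. The 8 epithelial markers summed to 381 to 424 CPM in Cap_L and 283 to 295 CPM in Cap_B, and to 300.4 to 329 CPM in Cap_L_2D and 30.0 to 31.3 CPM in Cap_B_2D. At the bell stage they summed to 648 to 678 CPM in Bell_L and 461 to 477 CPM in Bell_B, so epithelial RNA remained in the cut parts. The 6 bone markers summed to 964 to 984 CPM in Cap_L and 445 to 461 CPM in Cap_B, and to 2312 to 2343 CPM in Cap_L_2D and 563 to 584 CPM in Cap_B_2D. No marker of these 3 lists was at 0 in all libraries of a group, and the part of these cells in the differences below was not tested. In bulk tissue, fewer cells of a type and less RNA per cell cannot be told apart.

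**Figure D1:**
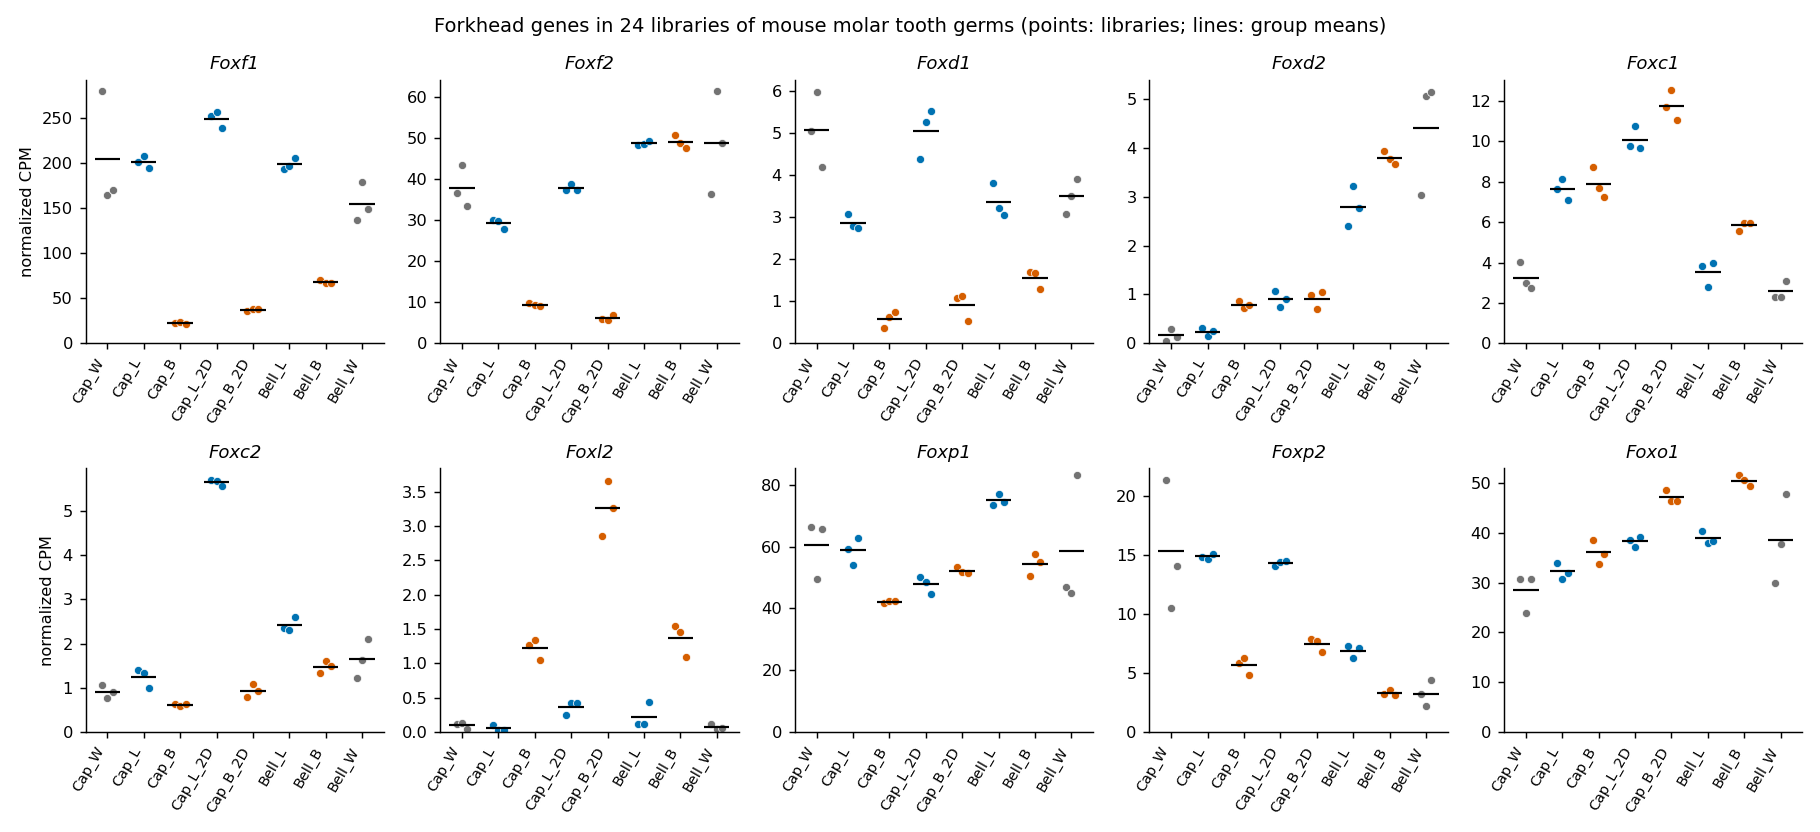
Level of each forkhead gene in the 24 libraries, as normalized CPM (linear axes from 0), by group; points are libraries, black lines are group means, and colors mark lingual (blue), buccal (orange) and undivided (grey) libraries. Foxf1 is at 21.5 to 24.1 CPM in Cap_B and at 238 to 257 CPM in Cap_L_2D, with 1 library of Cap_W higher still, Foxl2 is highest in the 3 buccal groups, and Foxf2 is at 47.5 to 50.7 CPM in both parts of the bell stage.

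At the cap stage, the forkhead genes divided the germ into a lingual part rich in Foxf1, Foxf2, Foxd1, Foxc2 and Foxp2 and a buccal part with more Foxl2 and Foxd2. Foxc1 was level across the cut, and Foxp1 and Foxo1 moved by less than the fold limit. Of the 10 members, 2 were higher and 5 lower in Cap_B than in Cap_L, where 17.5% of all 20653 genes tested met the call, an adjusted p below 0.05 with a log2 fold change beyond 0.5 in size. Their median log2 difference was -0.72, against -0.01 over all genes tested. All values below are buccal minus lingual, from the quasi-likelihood test of edgeR, adjusted by Benjamini-Hochberg over all genes tested, and ± gives the standard error (SE). For a single gene, an exact permutation test of 3 libraries against 3 could not go below p = 0.10.

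Foxf1, a hedgehog target needed for lung and gut mesenchyme, was at 201, 207 and 194 CPM in the 3 Cap_L libraries and at 22.7, 24.1 and 21.5 CPM in Cap_B. Every lingual library was far above every buccal library. The log2 difference was -3.12 ± 0.054 (adjusted p = 4.21e-18), and the mean level was 8.82 times higher in the lingual part. Its relative Foxf2, which acts in palate and tongue mesenchyme, was at 29.9, 29.9 and 27.8 CPM in Cap_L and at 9.76, 9.30 and 9.15 CPM in Cap_B. Here too the groups did not overlap, with a smaller step (log2 difference -1.61 ± 0.068, adjusted p = 8.67e-13). Foxd1, known from the stroma of the kidney and the retina, was at 3.08, 2.78 and 2.76 CPM in Cap_L and at 0.361, 0.628 and 0.740 CPM in Cap_B. It was the least abundant of the lingual trio, with 8 to 19 counts in each Cap_B library, and the groups stayed apart (log2 difference -2.26 ± 0.22, adjusted p = 1.0e-07). Foxd2, its relative, ran the other way, with 0.322, 0.139 and 0.247 CPM in Cap_L and 0.858, 0.712 and 0.779 CPM in Cap_B. All buccal libraries were higher, at 5 to 9 counts in a Cap_L library (log2 difference 1.78 ± 0.35, adjusted p = 0.000403).

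Foxc1, needed for skull bone and the front of the eye, was at 7.62, 8.16 and 7.10 CPM in Cap_L and at 8.72, 7.70 and 7.24 CPM in Cap_B. These ranges overlapped, and the log2 difference was 0.06 (95% confidence interval -0.14 to 0.27, adjusted p = 0.626). Foxc2, a regulator of lymphatic vessels and of mesenchyme, was at 1.40, 1.34 and 0.989 CPM in Cap_L and at 0.632, 0.586 and 0.623 CPM in Cap_B. The groups did not overlap (log2 difference -0.99 ± 0.25, adjusted p = 0.00324). Foxl2, the regulator of ovarian follicle cells, was at 0.107, 0.0278 and 0.0353 CPM in Cap_L, which is 1 to 3 counts a library, and at 1.26, 1.34 and 1.05 CPM in Cap_B. The lingual libraries lay at or under the counting floor, so the fold is given from the pooled counts: 87 against 5 counts, a ratio of 22.4 (95% exact interval 9.24 to 70.7), with an adjusted p of 9.82e-08. The fitted log2 difference, which depends on the prior count, was 4.40, and 5.12 without Cap_L replicate 1. Foxp2, a repressor known from brain and lung, was at 14.9, 14.7 and 15.1 CPM in Cap_L and at 5.83, 6.28 and 4.87 CPM in Cap_B. Its lingual libraries were all higher (log2 difference -1.37 ± 0.092, adjusted p = 7.33e-10).

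Foxp1, its more widely expressed relative, was at 59.3, 54.2 and 62.9 CPM in Cap_L and at 41.8, 42.5 and 42.4 CPM in Cap_B. The groups did not overlap, but the log2 difference of -0.45 ± 0.057 was within the fold limit (adjusted p = 3.82e-06). It was -0.52 without Cap_L replicate 2, which would pass. Foxo1, the insulin-responsive member, was at 34.0, 30.8 and 31.9 CPM in Cap_L and at 38.6, 33.8 and 35.8 CPM in Cap_B. These ranges overlapped at their edges, and the log2 difference of 0.19 ± 0.061 was also within the limit (adjusted p = 0.0184).

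**Figure D2:**
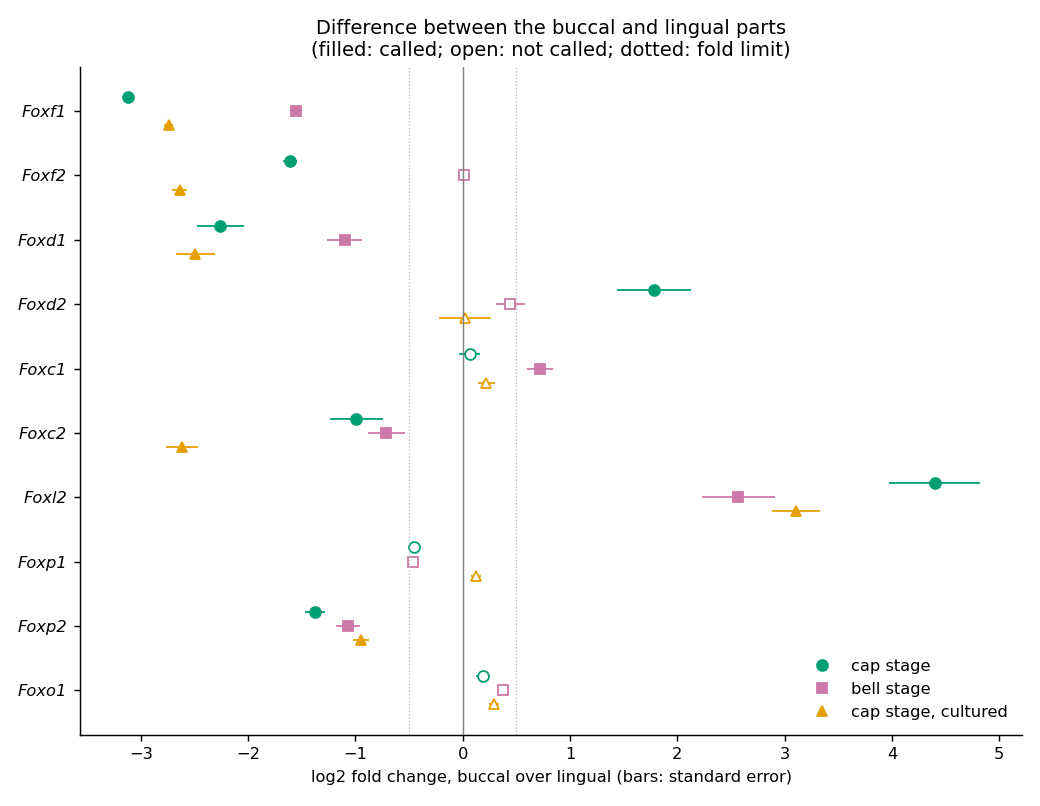
Log2 difference between the buccal and the lingual part for each forkhead gene at the cap stage, at the bell stage and after culture; points are fitted values, bars the standard error, and filled points passed the call. Foxf2 stands at -1.61 at the cap stage, 0.01 at the bell stage and -2.64 after culture, and Foxl2 is to the right of 0 each time.

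By the bell stage the divide had narrowed for Foxf1, Foxd1 and Foxd2 and was no longer detectable for Foxf2, while Foxc1 had become higher in the buccal part. Of the 10 members, 2 were higher and 4 lower in Bell_B than in Bell_L, against 12.9% of 21181 genes called, and their median log2 difference was -0.23 against 0.00 over all genes. Foxf1 was at 194, 197 and 206 CPM in Bell_L and at 69.6, 67.0 and 66.4 CPM in Bell_B. The lingual part stayed higher by a smaller margin (log2 difference -1.55 ± 0.035, adjusted p = 1.24e-32). Foxf2 was at 48.2, 48.6 and 49.3 CPM in Bell_L and at 50.7, 48.6 and 47.5 CPM in Bell_B. Its ranges overlapped, and the 95% confidence interval of the log2 difference, -0.08 to 0.09, was narrow around 0 (adjusted p = 0.915). Foxd1 was at 3.81, 3.21 and 3.06 CPM in Bell_L and at 1.71, 1.67 and 1.29 CPM in Bell_B, still higher in every lingual library (log2 difference -1.10 ± 0.16, adjusted p = 2.65e-07). Foxd2 was at 2.40, 3.21 and 2.76 CPM in Bell_L and at 3.94, 3.77 and 3.68 CPM in Bell_B. The buccal libraries were all higher, within the fold limit (log2 difference 0.44 ± 0.13, adjusted p = 0.00709), and the difference was 0.55 without Bell_L replicate 2, which would pass.

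The other subfamilies held or opened a side difference at the bell stage. Foxc1 was at 3.84, 2.77 and 3.99 CPM in Bell_L and at 5.58, 5.98 and 5.96 CPM in Bell_B. It was now higher in every buccal library (log2 difference 0.72 ± 0.12, adjusted p = 3.46e-06). Foxc2 was at 2.36, 2.30 and 2.59 CPM in Bell_L and at 1.35, 1.60 and 1.49 CPM in Bell_B, lower in every buccal library (log2 difference -0.71 ± 0.17, adjusted p = 0.000771). Foxl2 was at 0.114, 0.109 and 0.432 CPM in Bell_L and at 1.54, 1.46 and 1.09 CPM in Bell_B. Bell_L replicate 3 stood above its group, and all buccal libraries were above it (log2 difference 2.57 ± 0.34, adjusted p = 3.85e-08). Without that library the difference was 3.56. Foxp2 was at 7.27, 6.24 and 7.15 CPM in Bell_L and at 3.18, 3.52 and 3.15 CPM in Bell_B, lower in every buccal library (log2 difference -1.07 ± 0.11, adjusted p = 9.87e-11). Foxp1, at 73.6, 77.0 and 74.5 CPM in Bell_L and 50.6, 57.7 and 54.9 CPM in Bell_B, differed by -0.46 ± 0.041, within the fold limit, and by -0.51 without Bell_B replicate 2, which would pass. Foxo1, at 40.4, 37.9 and 38.3 CPM in Bell_L and 51.6, 50.6 and 49.4 CPM in Bell_B, differed by 0.38 ± 0.043, also within it.

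Whether a side difference itself changed from cap to bell was tested as an interaction, called at an adjusted p under 0.05 with no fold limit, which 32.5% of 21931 genes passed. Among the members, 4 rose and 1 fell. The buccal minus lingual difference moved up by 1.56 ± 0.064 for Foxf1, by 1.61 ± 0.077 for Foxf2, by 1.15 ± 0.29 for Foxd1 and by 0.65 ± 0.16 for Foxc1 on the log2 scale (adjusted p from 5.15e-18 for Foxf1 to 0.00234 for Foxd1). It moved by -1.34 ± 0.36 for Foxd2 (adjusted p = 0.00483), toward less of a buccal excess, but Foxd2 did not pass with all 24 libraries in 1 fit (-1.30, adjusted p = 0.0532). For Foxl2 it was -1.84 ± 0.73 (adjusted p = 0.0546), and it passed without Bell_L replicate 1, Bell_L replicate 2 or Cap_L replicate 1, with log2 values of -2.12, -2.16 and -2.55. For Foxo1 the value was 0.19 ± 0.074 (adjusted p = 0.0552), and for Foxp2 0.30 ± 0.14 (adjusted p = 0.114). Foxo1 passed without Bell_L replicate 1, Cap_B replicate 1, Cap_L replicate 2 or Cap_L replicate 3, at 0.21, 0.25, 0.24 and 0.20, and Foxp2 passed without Cap_B replicate 2, at 0.40. Foxc2 and Foxp1 moved by 0.28 and -0.02 with adjusted p of 0.51 and 0.874.

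After 2 days apart in culture, the lingual part of the cap germ held high levels of Foxf1, Foxf2, Foxd1, Foxc2 and Foxp2, and Foxl2 was the member called higher in the buccal part. Of the 10 members, 1 was higher and 5 were lower in Cap_B_2D than in Cap_L_2D, against 25.1% of 21195 genes called, with a median log2 difference of -0.46 against 0.00 over all genes. Foxf1 was at 252, 257 and 238 CPM in Cap_L_2D and at 36.3, 38.3 and 37.7 CPM in Cap_B_2D. The groups were far apart (log2 difference -2.74 ± 0.044, adjusted p = 3.22e-25). Foxf2 was at 37.2, 38.7 and 37.4 CPM in Cap_L_2D and at 5.82, 5.68 and 6.78 CPM in Cap_B_2D, a wider gap than at the cap stage (log2 difference -2.64 ± 0.069, adjusted p = 7.88e-21). Foxd1 was at 4.40, 5.27 and 5.53 CPM in Cap_L_2D and at 1.07, 1.12 and 0.538 CPM in Cap_B_2D, again apart (log2 difference -2.49 ± 0.18, adjusted p = 8.11e-12). Foxd2 was at 1.07, 0.738 and 0.913 CPM in Cap_L_2D and at 0.989, 0.697 and 1.04 CPM in Cap_B_2D. Its ranges overlapped in full, with a log2 difference of 0.02 (95% confidence interval -0.47 to 0.52, adjusted p = 0.946).

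Foxc2 showed a wide gap between the cultured parts. It was at 5.71, 5.69 and 5.56 CPM in Cap_L_2D and at 0.797, 1.08 and 0.918 CPM in Cap_B_2D. The cultured lingual libraries were the highest of all 24 for this gene (log2 difference -2.62 ± 0.15, adjusted p = 6.19e-14). The 8 endothelial markers, 7 of them called lower in the buccal part, summed to 438 to 443 CPM in Cap_L_2D and 182 to 189 CPM in Cap_B_2D, and their part in the Foxc2 difference was not tested. Foxc1, at 9.78, 10.7 and 9.65 CPM in Cap_L_2D and at 11.7, 12.5 and 11.1 CPM in Cap_B_2D, was higher in each buccal library by less than the fold limit (log2 difference 0.22 ± 0.078, adjusted p = 0.0202). Foxl2 was at 0.246, 0.421 and 0.415 CPM in Cap_L_2D and at 2.86, 3.66 and 3.26 CPM in Cap_B_2D, its highest level in the series. All buccal libraries were above all lingual ones (log2 difference 3.11 ± 0.22, adjusted p = 6.48e-12). Foxp2 was at 14.1, 14.4 and 14.5 CPM in Cap_L_2D and at 7.86, 7.70 and 6.81 CPM in Cap_B_2D, lower in each buccal library (log2 difference -0.95 ± 0.078, adjusted p = 1.08e-10). Foxp1, at 50.1, 48.6 and 44.6 CPM in Cap_L_2D and at 53.3, 51.6 and 51.3 CPM in Cap_B_2D, and Foxo1, at 38.6, 37.2 and 39.13 CPM in Cap_L_2D and at 48.6, 46.4 and 46.4 CPM in Cap_B_2D, were higher in the buccal libraries by 0.12 and 0.29 on the log2 scale, within the fold limit.

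The change of the side difference from the cap stage to culture passed the interaction test for 6 members, 3 in each direction, against 35.5% of 22098 genes. On the log2 scale it was -1.03 ± 0.10 for Foxf2, -1.76 ± 0.43 for Foxd2 and -1.63 ± 0.31 for Foxc2, and 0.37 ± 0.070 for Foxf1, 0.57 ± 0.075 for Foxp1 and 0.42 ± 0.12 for Foxp2. With all 24 libraries in 1 fit, Foxf1 (0.41, adjusted p = 0.164), Foxp1 (0.60, adjusted p = 0.0582) and Foxp2 (0.46, adjusted p = 0.29) did not pass, which left the 3 that moved down. Foxf2 and Foxc2 moved further to the lingual side in culture, and the buccal excess of Foxd2 was no longer detectable. Foxp2 did not pass without Cap_B replicate 3, at 0.32 with an adjusted p of 0.0575. Foxl2, at -1.30 ± 0.60 with an adjusted p of 0.0961, passed without Cap_L replicate 1, at -2.02. The values for Foxd1, Foxc1 and Foxo1 were -0.23, 0.15 and 0.10, with adjusted p from 0.329 to 0.643. This test and the one between stages share the Cap_L and Cap_B libraries. The cultured buccal libraries were also the ones with the lowest epithelial sum and the highest muscle sum given above.

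From cap to bell, Foxf1, Foxf2, Foxd1 and Foxc2, all richer on the lingual side in cap germs, rose in the buccal part together with Foxd2. In the lingual part Foxd2, Foxc2 and Foxf2 rose as well, and Foxp2 fell in both parts. In the buccal part 5 members rose and 1 fell, against 18.7% of 21992 genes. Foxf1 rose by 1.56 ± 0.049, Foxf2 by 2.37 ± 0.062, Foxd1 by 1.39 ± 0.27, Foxd2 by 2.27 ± 0.18 and Foxc2 by 1.25 ± 0.23 on the log2 scale, and Foxp2 fell by 0.79 (SE 0.12). In means, Foxf2 was 5.20 times higher in Bell_B than in Cap_B, and Foxf1 was 2.97 times higher. Foxo1, at 0.48 ± 0.047, and Foxc1, at -0.44 ± 0.095, stayed within the fold limit, and both would pass it without one library, Foxo1 at 0.52 without Cap_B replicate 1 and Foxc1 at -0.50 without Cap_B replicate 3. Foxp1 differed by 0.36 ± 0.047, and Foxl2 by 0.16 (95% confidence interval -0.27 to 0.59, adjusted p = 0.569).

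In the lingual part 4 members rose and 2 fell from cap to bell, against 20.0% of 21425 genes. Foxd2 rose most, by 3.60 ± 0.26, followed by Foxc2, at 0.96 ± 0.17, and Foxf2, at 0.75 ± 0.051, while Foxc1 fell by 1.10 (SE 0.12) and Foxp2 fell by 1.10 (SE 0.078). Foxl2 also passed, at 1.99 ± 0.71 (adjusted p = 0.0233), from 5 counts in Cap_L to 19 in Bell_L, a pooled ratio of 4.09 (95% exact interval 1.48 to 14.0). It did not pass without Bell_L replicate 3, Cap_L replicate 2 or Cap_L replicate 3, with log2 values of 0.99, 1.62 and 1.78, and was at 2.703 without Cap_L replicate 1. Foxf1 stayed at -0.01 (95% confidence interval -0.10 to 0.08, adjusted p = 0.918) and Foxd1 at 0.23 ± 0.14 (adjusted p = 0.167). Foxp1 and Foxo1 differed by 0.36 and 0.28, within the fold limit.

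Culture of the lingual part raised 4 members past the call relative to Cap_L, against 35.4% of 21425 genes called. Foxc2 rose by 2.18 ± 0.14, which is 4.56 times in means, Foxd2 by 1.97 ± 0.33 and Foxd1 by 0.84 ± 0.13 on the log2 scale. Foxl2 rose from 5 to 33 counts, a pooled ratio of 6.18 (95% exact interval 2.40 to 20.3), and its fitted value of 2.68 was 3.40 without Cap_L replicate 1. Foxf1, at 0.32 ± 0.044, Foxf2, at 0.38 ± 0.051, Foxc1, at 0.40 ± 0.097, Foxo1, at 0.26 ± 0.054, and Foxp1, at -0.29 ± 0.055, passed the p threshold only. Foxp2 differed by -0.05 (95% confidence interval -0.19 to 0.10). Culture of the buccal part raised Foxf1 by 0.70 ± 0.051, Foxc1 by 0.56 ± 0.083 and Foxl2 by 1.39 ± 0.17 relative to Cap_B and lowered Foxf2, which fell by 0.64 (SE 0.085), against 34.5% of 21992 genes called. Foxc1 was at 0.50, just under the limit, without Cap_B replicate 3. Foxd1, at 0.61 ± 0.30 (adjusted p = 0.0717), would pass without Cap_B replicate 3, at 0.84, or Cap_B_2D replicate 3, at 0.87. Foxc2, at 0.56 ± 0.25 (adjusted p = 0.0505), would pass without Cap_B_2D replicate 1, at 0.68. Foxd2 differed by 0.22 (95% confidence interval -0.27 to 0.70), and Foxp1, Foxp2 and Foxo1 by 0.28, 0.38 and 0.37, within the fold limit. Other cell types moved with culture as well. All 8 muscle markers were called higher in both parts, as they were from cap to bell. Of the 8 epithelial markers, 1 was called higher and 4 lower in the lingual part, and all 8 lower in the buccal part. The 6 erythroid markers, all called lower in both parts, summed to 1809 to 2224 CPM in Cap_L and 20.3 to 24.7 CPM in Cap_L_2D, and to 2106 to 2177 CPM in Cap_B and 25.8 to 29.1 CPM in Cap_B_2D. The 7 macrophage markers, all called higher in both, summed to 62.4 to 67.3 CPM in Cap_L and 258 to 267 CPM in Cap_L_2D, and to 61.9 to 68.3 CPM in Cap_B and 170.1 to 180.3 CPM in Cap_B_2D, and they were also called higher in both parts from cap to bell. The part of these cells in the changes of the members was not tested. The stage and culture comparisons of a part share their cap libraries.

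**Figure D3:**
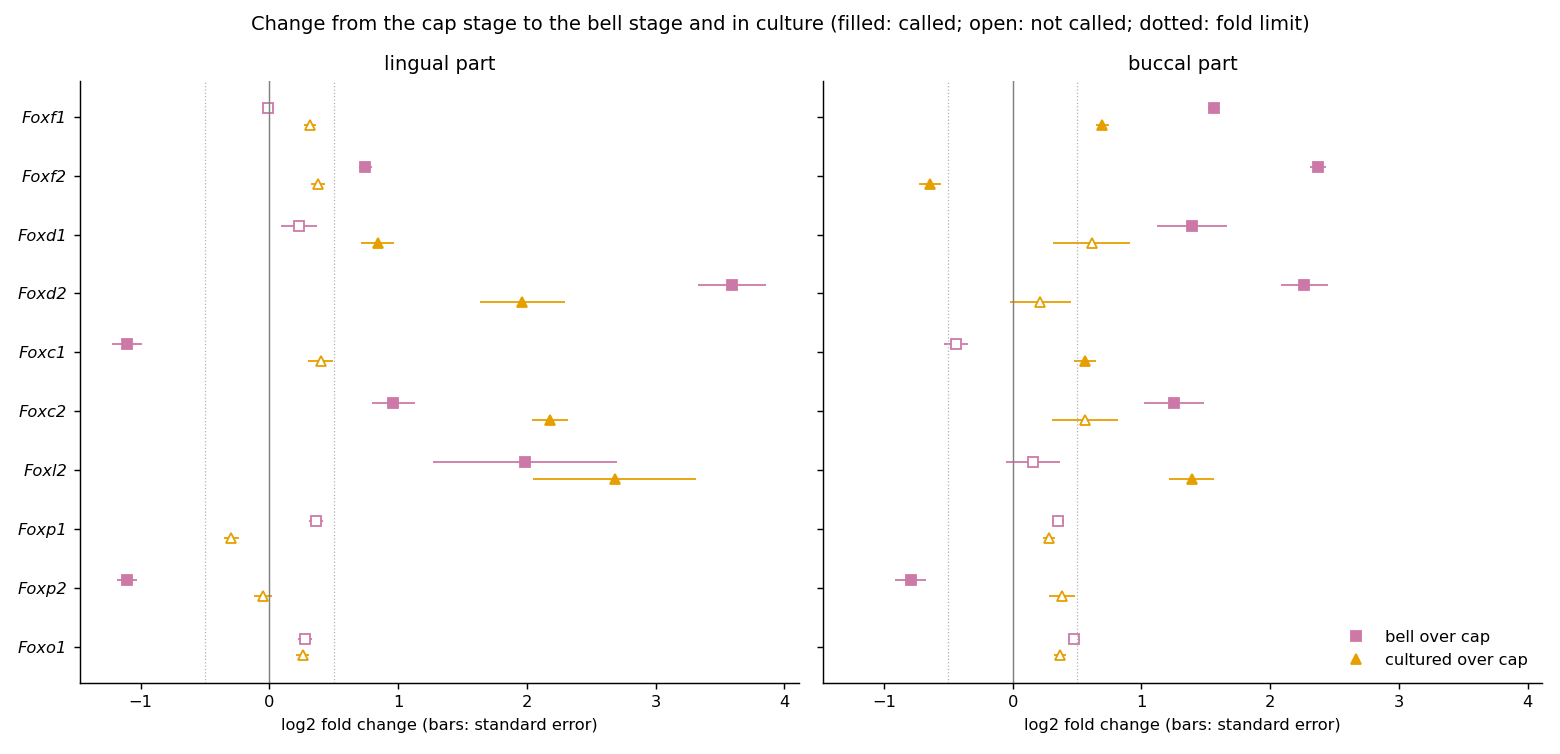
Log2 fold change of each forkhead gene from the cap stage to the bell stage (squares) and to culture (triangles), in the lingual part (left) and the buccal part (right); bars are standard errors, filled symbols passed the call and dotted lines mark the fold limit of 0.5. In the buccal part Foxf2 lies at 2.37 for the bell stage and at -0.64 for culture, and in the lingual part Foxd2 reaches 3.60 and Foxc2 2.18.

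Set directly against the bell stage, the cultured parts fell short of or passed the levels of the germ that grew in the embryo. Cap_L_2D was above Bell_L for Foxd1, at 0.61 ± 0.12, Foxc1, at 1.501 ± 0.11, Foxc2, at 1.22 ± 0.13, and Foxp2, at 1.06 ± 0.079, and below it for Foxd2, at -1.63 ± 0.20, and Foxp1, at -0.66 ± 0.055, so 6 of 10 were called against 31.2% of genes. Foxl2 differed by 0.70 ± 0.47 (adjusted p = 0.208) and passed without Bell_L replicate 3, at 1.69. Foxf1 and Foxf2 differed by 0.32 and -0.37 within the fold limit, and Foxo1 by -0.02. Cap_B_2D was below Bell_B for Foxf2, at -3.01 ± 0.063, Foxd2, at -2.05 ± 0.16, Foxf1, at -0.87 ± 0.043, Foxd1, at -0.78 ± 0.23, and Foxc2, at -0.69 ± 0.20, and above it for Foxl2, at 1.23 ± 0.16, Foxp2, at 1.18 ± 0.11, and Foxc1, at 1.00 ± 0.084. That is 8 of 10 called against 31.8% of genes, and Foxp1 and Foxo1, at -0.07 and -0.11, were not called. Foxd2 was under its bell level in both cultured parts, and Foxc1 and Foxp2 were over theirs.

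The undivided germs were compared between stages and with the mean of their parts. That mean was taken on the log2 scale, so it lies below the level of an equal mix wherever the parts differ. Foxd2 rose from 0.0557, 0.297 and 0.134 CPM in Cap_W to 3.04, 5.07 and 5.14 CPM in Bell_W. The groups were far apart, and the pooled counts of 359 against 13 gave a ratio of 24.7 (95% exact interval 14.3 to 46.9; adjusted p = 0.00153). The fitted value of 4.60 was 5.41 without Cap_W replicate 2. Foxp2 fell from 21.4, 10.5 and 14.1 CPM in Cap_W to 3.20, 2.22 and 4.36 CPM in Bell_W, with no overlap (log2 difference -2.23 ± 0.33, adjusted p = 0.00426). These were the calls among the 9 members tested, 1 in each direction, against 14.5% of 20940 genes, and Foxl2, with 1 to 4 counts a library in both groups, was too low to be tested. Foxf1, at 279, 165 and 169.7 CPM in Cap_W and 137, 179 and 149 CPM in Bell_W, overlapped between stages (log2 difference -0.41 ± 0.21, adjusted p = 0.24). Foxf2, at 36.6, 43.5 and 33.3 CPM in Cap_W and 36.3, 61.4 and 48.7 CPM in Bell_W, overlapped as well (log2 difference 0.35 ± 0.20, adjusted p = 0.283). Without Cap_W replicate 1 and Bell_W replicate 3, a choice made after the data were seen, the same members were called, Foxd2 at 4.13 and Foxp2 at -2.18, among 4443 genes.

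Cap_W was nearer to Cap_L than to Cap_B in its levels of Foxf1, Foxf2, Foxd1 and Foxp2. Some of its levels lay outside both parts. Mean Foxf2 was 37.8 CPM in Cap_W, 29.2 CPM in Cap_L and 9.40 CPM in Cap_B, and mean Foxd1 was 5.09, 2.87 and 0.576 CPM. Mean Foxc1, at 3.2 CPM in Cap_W, was under the 7.63 and 7.89 CPM of the parts. Against the mean of its parts Cap_W was higher for Foxf1, at 1.62 ± 0.14, Foxf2, at 1.22 ± 0.082, Foxd1, at 2.00 ± 0.19, and Foxp2, at 0.75 ± 0.18, and lower for Foxc1, at -1.25 ± 0.14, so 5 of 10 were called against 22.3% of 21215 genes. The Foxp2 value was 0.44 without Cap_W replicate 1, within the fold limit. Foxd2, at -1.21 ± 0.45 (adjusted p = 0.0557), passed without Cap_L replicate 2, at -1.37, or without Cap_W replicate 2, at -2.03, and Foxl2, at -1.36 ± 0.52 (adjusted p = 0.0652), passed without Cap_L replicate 2, at -1.55. Bell_W was lower than the mean of its parts for Foxc1, at -0.82 ± 0.16, and for Foxl2, at a fitted -2.83 ± 0.56, and higher for Foxd1, at 0.61 ± 0.14, so 3 of 10 were called against 9.56% of 21887 genes. Foxl2 had 6 pooled counts in Bell_W and 121 in Bell_B, a ratio of 17.8 for Bell_B over Bell_W (95% exact interval 7.97 to 49.6). With 19 pooled counts in Bell_L, the ratio of Bell_L over Bell_W was 2.925 (95% exact interval 1.12 to 8.95). Foxp2, at -0.54 ± 0.19 (adjusted p = 0.0684), passed without Bell_W replicate 3, at -0.81, when 3362 genes were called in place of 2092, and Foxd2, at 0.44 ± 0.18 (adjusted p = 0.107), passed without Bell_W replicate 1, at 0.65. The 8 muscle markers summed to 11.8 to 17.9 CPM in Cap_W and to 6.95 to 14.7 CPM in Bell_W, under every cut part, and the endothelial markers to 216 to 226 CPM in Cap_W against 530.0 to 538 CPM in Cap_L.

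Levels of different genes were set side by side per kilobase of exon. The length takes in every annotated exon base, from 2363 in Foxf2 to 16346 in Foxp2. It can exceed that of the RNA present, so ranks and shares are approximate. On this scale Foxf1 was the most abundant of the 10 members in every group, from 9.43 ± 0.54 CPM per kb (SD, n = 3) in Cap_B to 103 ± 3.9 CPM per kb in Cap_L_2D. Foxf2 came next in 6 of the 8 groups, with 12.3 ± 0.52 CPM per kb in Cap_L and 20.7 ± 0.68 CPM per kb in Bell_B. In Cap_B, Foxo1, at 4.17 ± 0.28 CPM per kb, and Foxf2, at 3.98 ± 0.13 CPM per kb, lay within their spread of each other, and in Cap_B_2D Foxf2 came after Foxo1 and Foxp1, at 2.58 ± 0.25 CPM per kb. Foxl2 was last in every lingual and undivided group, but in Cap_B_2D it reached 1.00 ± 0.12 CPM per kb and stood above Foxp2, Foxd2, Foxc2 and Foxd1. In Cap_B its 0.374 ± 0.046 CPM per kb and the 0.346 ± 0.044 CPM per kb of Foxp2 were not apart. Of the summed level per kb of the 10 genes, Foxf1 made up 77.8% in Cap_L, 40.4% in Cap_B, 77.4% in Cap_L_2D and 49.0% in Cap_B_2D. At the bell stage its share was 70.6% in Bell_L and 44.9% in Bell_B, and that of Foxf2 was 17.7% and 33.2%.

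**Figure D4:**
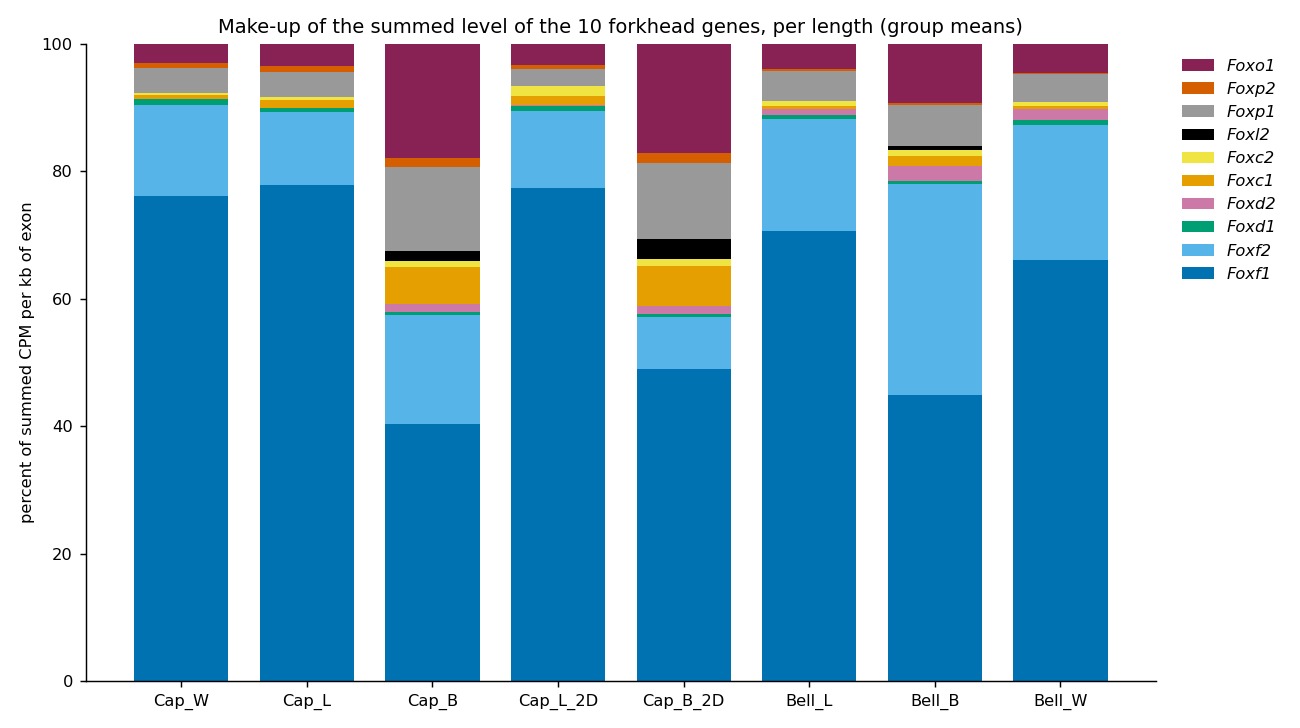
Share of each forkhead gene in the summed level of the 10 genes, in percent of CPM per kilobase of exon, from the mean of the 3 libraries of each group. Foxf1 holds 77.8% in Cap_L and 40.4% in Cap_B, and Foxf2 grows to 33.2% in Bell_B.

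The noncoding RNAs that start next to Foxf1 and Foxl2 followed the side of their neighbor. Fendrr, known for its part in heart and body wall development, was at 304, 293 and 311 CPM in Cap_L and at 28.95, 30.2 and 28.5 CPM in Cap_B. The log2 difference was -3.35 ± 0.052 (adjusted p = 1.06e-18), with no overlap, and it was -1.41 ± 0.034 at the bell stage and -3.74 ± 0.048 in culture, both also called. The pair parted in culture and, in the lingual part, also from cap to bell. Fendrr fell by 0.77 (SE 0.041) in the lingual part and by 1.15 (SE 0.055) in the buccal part relative to the cap stage, where Foxf1 was at 0.32 and 0.70. From cap to bell it fell by 0.77 (SE 0.041) in the lingual part, where Foxf1 was at -0.01, and rose by 1.17 ± 0.046 in the buccal part, where Foxf1 rose by 1.56. Cap_W replicate 1, at 125 CPM of Fendrr against 307 and 328 CPM in the other two, was also the library with the highest Foxf1, at 279 CPM.

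Foxl2os was at 0.179, 0.111 and 0.212 CPM in Cap_L and at 3.25, 2.47 and 2.88 CPM in Cap_B, and it reached 8.05, 8.05 and 8.30 CPM in Cap_B_2D. It was higher in the buccal part by 4.12 ± 0.27 at the cap stage, 3.07 ± 0.22 at the bell stage and 3.65 ± 0.15 in culture, all called and without overlap. Its start window shares the 204 bases printed in capitals above with that of Foxl2. Foxd2os was on the buccal side with Foxd2 at the bell stage (log2 difference 0.78 ± 0.12, adjusted p = 8.13e-07, no overlap), but not at the cap stage or in culture. At the cap stage it was at 1.15, 1.11 and 1.31 CPM in Cap_L and at 0.813, 1.26 and 1.25 CPM in Cap_B, with overlapping ranges (log2 difference -0.06 ± 0.22, adjusted p = 0.853), and in culture it was lower in the buccal part (-1.03 ± 0.20, adjusted p = 0.000101). From cap to bell it rose by 1.39 ± 0.17 in the lingual and by 2.23 ± 0.16 in the buccal part, where Foxd2 rose by 3.60 and 2.27. The protein-coding neighbors Mthfsd, next to Foxf1, and Gmds, next to Foxc1, were not called between sides in any of the 3 comparisons, with log2 differences of -0.11 to -0.04 for Mthfsd and -0.23 to 0.35 for Gmds. Foxq1, which starts 69682 bases from Foxf2 and has 66.1% of its exon bases in common with an unnamed gene of the other strand, was higher in the buccal part at the cap stage, at 1.23 ± 0.33, and lower in culture, at -0.84 ± 0.17, so its counts are uncertain.

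**Figure D5:**
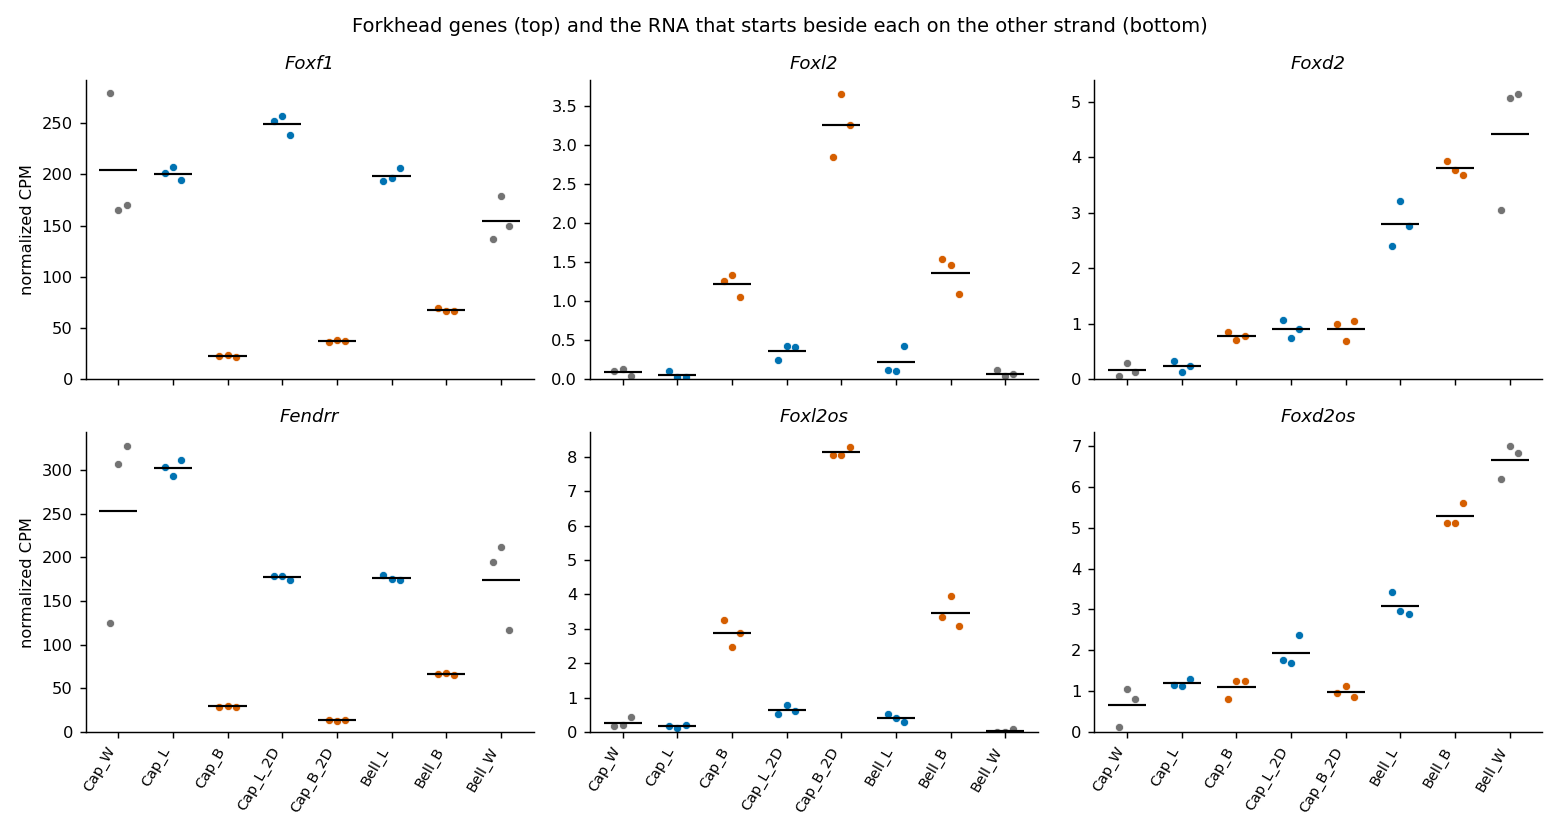
Levels of 3 forkhead genes and of the noncoding RNA that starts beside each, as normalized CPM (linear axes from 0) by group; points are libraries, lines group means, and colors mark lingual (blue), buccal (orange) and undivided (grey) libraries. Fendrr and Foxf1 lie at 293 to 311 and 194 to 207 CPM in Cap_L, and Foxl2os and Foxl2 are both highest in Cap_B_2D.

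The forkhead genes that are not members were counted as a group of 35, of which 19 or 20 passed the filter on low counts. Between sides, the buccal part was higher for 4 and lower for 5 in cap germs, for 3 and 3 in bell germs, and for 4 and 7 in culture, against 17.5%, 12.9% and 25.1% of all genes called. Foxl1, a gut mesenchyme regulator that lies 43554 bases from Foxf1, was the one lowered most at the cap stage, at 0.429, 0.613 and 0.565 CPM in Cap_L and at 0 to 0.0419 CPM in Cap_B, where a fold would rest on the prior count. At the bell stage it differed by -1.56, and in Bell_B it was at 0.361, 0.498 and 0.464 CPM, above every Cap_B library. Foxd3, a neural crest and Schwann cell precursor gene, was the one raised most in all 3 side comparisons, by 1.28, 0.99 and 2.54 on the log2 scale. The culture value rests on 0.0822, 0.211 and 0.0830 CPM in Cap_L_2D, at or near the counting floor. In Cap_B_2D Foxd3 was at 0.879, 0.558 and 0.760 CPM, under every Cap_B library. The 5 Schwann cell markers summed to 25.7 to 26.5 CPM in Cap_L and 59.3 to 63.7 CPM in Cap_B, and none was at 0 in a whole group. Foxe1, an oral and thyroid gene, was the one lowered most in culture, at -4.21 with 3 or 4 counts in a Cap_B_2D library, and it fell by 1.15 in the lingual and by 0.86 in the buccal part from cap to bell. Foxn1, the thymus and hair epithelium regulator, rose most in the lingual part from cap to bell, by 1.80, from 2 to 7 counts in a Cap_L library to 14 to 16 in Bell_L. Between the undivided stages Foxs1 rose by 3.96, from 2 to 9 counts in a Cap_W library, and Foxp4 fell by 1.03, the strongest of 1 raised and 3 lowered.

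The hedgehog pathway was followed through 15 genes, since 4 of the members are known targets. At the cap stage 6 of the 14 tested were higher and 3 lower in the buccal part, against 17.5% of all genes called, with a median log2 difference of 0.12 against -0.01 over all genes. The largest values were those of the ligand Dhh, the binding protein Hhip, at 1.61, and the co-receptors Cdon and Gas1, at 1.60 and 1.48. Dhh was low throughout, at 0.0707 to 0.111 CPM in Cap_L and 0.587 to 0.921 CPM in Cap_B. Ptch1, the receptor that is itself a target, was at 267, 238 and 284 CPM in Cap_L and at 139, 138 and 132 CPM in Cap_B, lower in every buccal library. Gli1, the effector and target, went the other way by a small margin. It was at 121, 125 and 123 CPM in Cap_L and at 140, 128 and 139 CPM in Cap_B. At the bell stage 4 of 15 were called, all of them higher in the buccal part, against 12.9% of all genes, and the median was 0.00. In culture 4 of 14 were higher and 8 lower in the buccal part, against 25.1% of all genes, with a median of -0.70. Shh, the ligand made by the enamel knot epithelium, was at 1.77, 1.09 and 1.38 CPM in Cap_L_2D and had no count in any Cap_B_2D library. In these cultured parts Gli1 was at 229, 213 and 227 CPM in Cap_L_2D and at 30.2, 30.8 and 36.7 CPM in Cap_B_2D (log2 difference -2.78), and Hhip differed by -2.15. Relative to the cap stage, culture raised 7 and lowered 2 of the 15 in the lingual part and raised 1 and lowered 6 in the buccal part, against 35.4% and 34.5% of all genes called. The interaction of side with culture passed for 12 of the 15, against 35.5% of all genes, and 11 of them moved toward the lingual side. Of the 8 epithelial markers, culture raised 1 and lowered 4 in the lingual part and lowered all 8 in the buccal part. The part of epithelium in the hedgehog values was not tested.

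The 12 FoxO target genes leaned to the lingual side in the median of each side comparison. The median log2 difference was -0.27 at the cap stage, -0.33 at the bell stage and -0.24 in culture. Over all genes it was -0.01, 0.00 and 0.00. Called genes went both ways at the cap stage and in culture. In the buccal part 2 were higher and 4 lower at the cap stage, 3 were lower among the 12 at the bell stage, and 1 was higher and 4 lower in culture, against 17.5%, 12.9% and 25.1% of all genes called. The largest at the cap stage were Gadd45a, at -0.81, Fbxo32, at -0.78, Pik3ip1, at -0.64, and Insr, at 0.61. In culture 6 of 12 were called in the lingual part, all higher, with a median log2 fold change of 0.54 against -0.03 over all genes, and 5 of 12 in the buccal part, all higher, with a median of 0.27 against -0.02. These counts lie near the 35.4% and 34.5% of all genes called in the same comparisons. Bcl6, a repressor, rose by 1.75 and 1.79, the growth arrest gene Gadd45a by 1.19 and 1.77, and Pdk4 and Irs2, which act in fuel choice and insulin signaling, by 1.26 and 0.99 in the lingual part. In the buccal part mean Pdk4 went from 3.51 to 6.44 CPM and mean Irs2 from 135 to 175 CPM. Fbxo32 and Cited2 rose by 1.33 and 1.18 in the buccal part and by 0.79 and 0.58 in the lingual part. Foxo1 itself was at 0.26 and 0.37 in these comparisons, within the fold limit. The part of muscle and other cell types in these rises was not tested.

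Likeness of pattern was described by Pearson's r of the log2 level over the 8 group means with 4930 genes that were well expressed and varied between groups. Foxl2, at or under the counting floor in several groups, was left out. The points share the same 24 libraries and differ in stage, side and culture, so many genes reach high values. Foxf1 and Foxd1 were close to each other (r = 0.977) and to the same genes, Cyria, at 0.977 and 0.955, and Ptprk, at 0.971 and 0.986. Foxf2 was closest to Eva1a, at 0.967, and to Ptch1 and Fignl2, both at 0.954. Foxp2 was closest to the homeobox gene Alx4, at 0.975, Foxc2 to Fmo1, at 0.978, Foxd2 to Edil3, at 0.974, Foxc1 to Sorcs1, at 0.977, Foxo1 to Scn3b, at 0.979, and Foxp1 to Ryr2, at 0.902. Among the other members, Foxd2 and Foxp2 ran most nearly opposite, at -0.86.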

How the data were processed

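Total RNA of 24 libraries (8 groups of 3) was sequenced, and the deposited file holds raw counts per gene, made by the authors with featureCounts 2.0.0 on the Ensembl 107 annotation of GRCm39 without regard to strand, per the file header. The submitters' processing notes name FastQC 0.12.1, Trimmomatic 0.39, Bowtie 1.2.3, Subread 2.0.3 and DESeq2 1.40.2. The labels and the study's methods name different library kits and aligners, and which of them made these counts is not settled. Of 56748 genes, 56017 had a symbol. Groups were taken from the sample titles.

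Counts were fitted in R 4.3.3 with edgeR 4.0.16 (TMM, filterByExpr, quasi-likelihood test), on the groups each comparison needs, with Benjamini-Hochberg adjustment over all genes tested. The 3 groups of each part were fitted together. The call was an adjusted p below 0.05 with a log2 fold change beyond 0.5 in size, and for interactions the p alone. The standard error is the log2 fold change divided by the root of F. Levels are normalized CPM, and per-length levels are divided by exon length. The procedure was tested on simulated data first. The alternatives were DESeq2 1.42.0, RLE or library-total scaling, no filter, other fold limits, a replicate block, all 24 libraries in 1 fit and leaving out each library. Depth was 20581720 to 39266497 counts, which puts the counting floor of 3 counts at 0.0764 to 0.146 CPM.

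Named were all 10 members in every comparison, the listed neighboring genes, the called other forkhead gene furthest in each direction, up to 4 called genes of the hedgehog and FoxO lists, and the 3 genes most like each member. Ptch1 levels and the cap stage levels of Gli1 beside the hedgehog list, and which of the likest genes are printed, were chosen after their values were seen. A gene of the hedgehog list is not reported here by name. The members and lists were chosen with earlier results of these data known. RefSeq start windows (GRCm38.p6) were read for sequence only. Same-numbered libraries were not paired: the correlation of their deviations was -0.05 to 0.09 over 23402 genes.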

Additional observations from a re-analysis of the deposited data

Results flagged for a closer look

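A difference between groups in the same contrast drew attention to 11 results, each by a test of the difference itself (the interaction in edgeR's quasi-likelihood test). Between the stages, the buccal minus lingual log2 difference changed by 1.56 for Foxf1, 1.61 for Foxf2, 1.15 for Foxd1, 0.65 for Foxc1 and -1.34 for Foxd2. For Foxf1 and Foxd1 the genes stayed richer in the lingual part at both stages, and for Foxf2 the side difference was not detectable at the bell stage. Between the cap stage and culture, it changed by -1.03 for Foxf2, -1.76 for Foxd2 and -1.63 for Foxc2, and by 0.37 for Foxf1, 0.57 for Foxp1 and 0.42 for Foxp2. Foxf1 and Foxf2 thus changed in the same direction between stages and in opposite directions between the cap stage and culture. With all 24 libraries in 1 fit, the changes of Foxf1, Foxp1 and Foxp2 in culture and of Foxd2 between stages did not pass (adjusted p of 0.164, 0.0582, 0.29 and 0.0532), so the opposite direction of Foxf1 was not called there. Cap_L and Cap_B enter both tests. No test for single libraries that stand apart was run in groups of 3, and the libraries singled out above were noted from their values.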

How the results depend on the processing

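Over all alternatives, 1891 log2 fold changes of the members kept their direction and their side of the threshold, 61 passed where they had not, 16 no longer passed, and 28 changed sign, none of them a called value. With no fold limit the calls over all genes were 8746 for the cap side, 7846 for the bell side, 11569 for the culture side, 10725 and 10557 for the lingual and buccal stage, 14126 and 14768 for the lingual and buccal culture, 13140 and 14449 for these against the bell stage, and 8517 and 4720 for the whole cap and bell germs against their parts, and the member calls were 9 in lingual and 7 in buccal culture. A fold limit of 1 left 1348 genes for side by stage, and 1753 genes and 3 members for side by culture. With all 24 libraries in 1 fit, the whole stage had 4 members and 5887 genes, adding Foxc2 and Foxd1, side by stage 2581 genes, where Foxd2 no longer passed, and side by culture 4048 genes and 3 members, without Foxf1, Foxp1 and Foxp2.

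Leaving out 1 library gave 1758 to 3057 genes for the whole stage, 4443 without Cap_W replicate 1 and Bell_W replicate 3 (chosen after seeing the data), 1796 to 3362 for the whole bell germ against its parts, and log2 ranges across 0 for Foxc1 at the cap side (-0.011 to 0.12), Foxf2 at the bell side (-0.017 to 0.028), Foxd2 at the culture side (-0.095 to 0.17), Foxp1 at the whole stage (-0.41 to 0.11), Foxf1 at the lingual stage (-0.037 to 0.014), Foxo1 in lingual culture against bell (-0.041 to 0.0036), Foxc2 in the whole cap germ (-0.071 to 0.18), Foxf2 and Foxp1 in the whole bell germ (-0.20 to 0.17 and -0.48 to 0.029), Foxp1 for side by stage (-0.067 to 0.054) and Foxd1 for side by culture (-0.46 to 0.026). Other sign changes were Foxp1 at the whole stage, at 0.012 with library totals, Foxo1 in lingual culture against bell, at 0.0015 with no filter, Foxf2 in the whole bell germ, at 0.048 with library totals, and Foxp1 for side by stage, at 0.013 with all 24 libraries, 0.029 with library totals and 0.017 with no filter. The cause was not tested.

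Library totals moved the median of all genes by -0.15 in lingual culture and by -0.11 against bell, and the other scalings by less than 0.1. Under them Foxd1 in lingual culture against bell, at 0.50, and Foxc1 in buccal culture, at 0.48, no longer passed. With the replicate block, 138 of 139 member values kept their call, and Foxo1 for side by stage passed, at 0.19 with an adjusted p of 0.0398. It also passed with RLE, library totals and no filter. Foxl2 for side by stage, at -1.80, and Foxd1 in buccal culture, at 0.65, passed with no filter. Foxc2 in buccal culture passed with RLE, at 0.58. With all 24 libraries in 1 fit, Foxd2 in the whole cap germ passed, at -1.21. Foxp2 in the whole bell germ passed there and with DESeq2, both at -0.53. In the whole stage alone all 3 numbers correlated best with their own. Foxl2 and Foxd2 rest on few counts at the cap stage, where depth limits them.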
